A study of Mus musculus with 6 samples.

Results

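The proteasome genes were taken as every gene whose symbol begins with Psm, one letter from a to g and a digit, which gave 50 of the 27998 genes listed in the count tables of invariant natural killer T (iNKT) cells of the mouse. The immunoproteasome genes Psmb8, Psmb9, Psmb10, Psme1 and Psme2 were given apart from the rest. The cells came from liver, spleen and lymph node of wild-type (WT) C57BL/6 mice aged 5 weeks, with 2 libraries for each organ, and no group carried a treatment or an edited allele. Cells bearing CD8 or B220 had been depleted, the remainder had been sorted on TCR-β and the CD1d tetramer, and single cells had been sequenced with the 10x 3′ kit. The study describes the libraries of an organ as biological repeats, and the number of mice behind a library and any batch were not given, so every p-value measured the spread between these libraries.

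The proteasome is the protease that cuts proteins tagged with ubiquitin. Its 20S core is a barrel of alpha rings around beta rings, and 3 beta subunits, Psmb5, Psmb6 and Psmb7, carry the catalytic sites. In lymphocytes and in cells exposed to interferon these are replaced by Psmb8, Psmb9 and Psmb10, which makes the immunoproteasome and shifts the peptides offered to MHC class I. The 19S particle, built from the Psmc ATPases and the Psmd subunits, recognises, unfolds and feeds substrates to the core. Psme1 and Psme2 form the interferon-inducible PA28 cap, Psme3 and Psme4 are other activators, Psmf1 is an inhibitor, and the Psmg proteins with Psmd5, Psmd9 and Psmd10 help to assemble the particle.

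The tables held 16587 barcodes, of which 16532 passed the filters on genes and mitochondrial reads (5662 from liver, 5384 from spleen and 5486 from lymph node). Between 6 and 20 barcodes were shared by any pair of libraries. Once 94 ribosomal, ribosomal RNA and haemoglobin genes had been set aside, the libraries held 3628840 to 7110148 unique molecular identifiers (UMIs, each 1 captured RNA molecule), with a median of 1136.5 to 2354 per cell, and liver was the deepest organ. Genes of T cells were present throughout (Cd3d at 1245 to 1671 CPM, the counts-per-million scale, here over all UMIs), while 7 myeloid genes summed to 1.60 to 95.2 CPM with S100a9 at 0, 4 hepatocyte genes to 2.93 CPM or less with Ttr at 0, and Cd8a lay at 3.04 CPM or less. The list of 5 red cell genes, 4 of which are haemoglobin genes left out of the totals, summed to 362 and 583 CPM in the liver libraries and to at most 0.210 CPM in the other 4, and its part in the comparisons with liver was not tested. The lymph node libraries differed from the others in more than the organ. Xist had 0 UMIs in both of them and 5401 to 10404 in the liver and spleen libraries, while 4 Y-linked genes summed to 1362 and 1579 UMIs in lymph node and 0 elsewhere, so that organ and sex cannot be told apart in any comparison with lymph node. The list of 12 stress and immediate early genes summed to 6106 and 6791 CPM in lymph node against 1573 to 2569 elsewhere. Its members did not all go this way. Junb was at 2948 and 3342 CPM in lymph node against 262 to 575 elsewhere. The heat shock gene Hspa8 was at 1452 and 1493 in lymph node, below liver (1772 and 1971) and above spleen (1101 and 869), and Hsph1 had the same order. The part of these differences in the results was not tested.

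Immunoproteasome genes lie at 3 places in the GENCODE vM21 annotation (build mm10, GRCm38), where all 50 proteasome genes were found as protein-coding genes. Psmb8 (ENSMUSG00000024338, chr17:34197721-34201454, plus strand) and Psmb9 (ENSMUSG00000096727, chr17:34181987-34187764, minus strand) lie close together on opposite strands. Psme1 (ENSMUSG00000022216, chr14:55578123-55581529, plus strand) and Psme2 (ENSMUSG00000079197, chr14:55587441-55591113, minus strand) are neighbours as well, and Psmb10 (ENSMUSG00000031897, chr8:105935735-105938444, minus strand) stands alone. The constitutive counterparts are Psmb5 (ENSMUSG00000022193, chr14:54614119-54618022, minus strand), Psmb6 (ENSMUSG00000018286, chr11:70525367-70527858, plus strand) and Psmb7 (ENSMUSG00000026750, chr2:38588036-38644087, minus strand). Psme2b (ENSMUSG00000078153, chr11:48945354-48946190, minus strand) is a near copy of Psme2, and the counting could have split or dropped reads that match both, so the values of both are uncertain.

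Promoter windows of 300 bases, from 250 before to 50 after a RefSeq transcript start (GRCm38.p6), were at hand for 42 of the 50 genes, the exceptions being Psma8, Psmb1, Psmb2, Psmb7, Psmc3, Psmd3, Psmd7 and Psmg2. Those of Psmb8, Psmb9 and Psme1 are shown as examples of the immunoproteasome genes, which were called together in interferon-marked cells and in both comparisons with lymph node over all cells, and that of Psmb5 because it is the constitutive counterpart of Psmb8. Each is written 5′ to 3′ along the gene, and capitals mark a match to 1 of 3 motifs searched on both strands: an interferon-response element (GAAA, any 2 bases, GAAA), a gamma-activated site (TTCNNNGAA) and the core of an antioxidant response element (TGACNNNGC). The windows are chr17:34197945-34198244 (plus) for Psmb8, chr17:34187281-34187580 (minus) for Psmb9, chr14:55578244-55578543 (plus) for Psme1 and chr14:54617946-54618245 (minus) for Psmb5, and the first 3 lie inside the genes as GENCODE draws them.
Psmb8: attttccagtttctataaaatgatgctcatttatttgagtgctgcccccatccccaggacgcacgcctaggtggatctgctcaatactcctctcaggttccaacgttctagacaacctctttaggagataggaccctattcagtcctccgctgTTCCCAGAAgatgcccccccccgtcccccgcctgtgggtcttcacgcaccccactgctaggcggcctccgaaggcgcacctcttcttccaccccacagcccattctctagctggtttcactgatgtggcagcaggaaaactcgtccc
Psmb9: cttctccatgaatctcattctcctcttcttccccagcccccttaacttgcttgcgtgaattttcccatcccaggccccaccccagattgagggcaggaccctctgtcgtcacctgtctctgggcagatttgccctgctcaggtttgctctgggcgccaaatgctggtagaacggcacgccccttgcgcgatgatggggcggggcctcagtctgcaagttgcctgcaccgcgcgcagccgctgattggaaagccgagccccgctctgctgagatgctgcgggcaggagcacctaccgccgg
Psme1: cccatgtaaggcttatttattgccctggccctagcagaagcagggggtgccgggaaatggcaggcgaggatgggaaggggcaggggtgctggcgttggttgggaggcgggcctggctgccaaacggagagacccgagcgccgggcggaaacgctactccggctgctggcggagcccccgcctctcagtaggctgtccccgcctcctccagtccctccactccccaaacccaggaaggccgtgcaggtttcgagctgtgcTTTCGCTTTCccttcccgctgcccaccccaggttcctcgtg
Psmb5: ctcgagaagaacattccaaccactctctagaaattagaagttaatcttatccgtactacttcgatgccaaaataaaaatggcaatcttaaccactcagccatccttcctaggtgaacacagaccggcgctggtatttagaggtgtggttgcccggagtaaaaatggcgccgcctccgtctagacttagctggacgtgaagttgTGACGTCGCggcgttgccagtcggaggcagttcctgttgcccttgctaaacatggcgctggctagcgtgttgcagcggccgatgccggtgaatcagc
The Psmb8 window held the gamma-activated site with its first base at -97, a palindrome that reads the same way on both strands in these letters. The Psme1 window held the interferon-response element at 10 bases into the transcript, on the opposite strand, and the Psmb5 window held the antioxidant core at -47. No match to these letters was found in the Psmb9, Psmb10 and Psme2 windows. Among all 32851 windows, 3.44% held the interferon-response letters, 8.3% the gamma-activated letters and 12.4% the antioxidant letters. Among the 45 windows of the 42 proteasome genes, 5, 3 and 6 held them respectively, each in a different gene. The interferon-response letters were in the windows of Psmb3, Psmd4, Psmd9, Psme1 and Psmg4, of which only Psme1 is an immunoproteasome gene.

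The whole family was first summed. Proteasome genes made up 1.21% and 1.30% of UMIs for liver, 1.34% and 1.31% for spleen and 1.11% and 1.09% for lymph node. The share was therefore lowest in both lymph node libraries, at 1.10% ± 0.0149 (SD, n = 2) against 1.26% ± 0.0614 in liver and 1.33% ± 0.0239 in spleen. The 5 immunoproteasome genes made up 33.6% and 32.3% of the proteasome UMIs for liver, 30.2% and 29.3% for spleen and 25.1% and 23.8% for lymph node, and the organs did not overlap. Cells with at least 1000 UMIs were then thinned to 1000, which left 1770 to 2694 cells a library. This dropped 107 and 254 cells for liver, 573 and 869 for spleen and 740 and 1078 for lymph node. A thinned cell held on average 3.95 and 4.06 immunoproteasome UMIs for liver, 4.10 and 3.85 for spleen and 2.78 and 2.53 for lymph node. These sums are descriptions and carry no test.

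Of the 50 genes, 48 passed the filter on low counts in the comparisons between organs. The other two were Psma8, a testis form of an alpha subunit, with 2 UMIs in the 16532 cells, and Psmb11, the catalytic subunit of thymic cortical epithelium, with 4. Levels are given below in CPM, the UMIs of a gene over the library total after TMM scaling (trimmed mean of M values) by edgeR. They count 3′ tags and are not divided by length, so they are compared between samples and not between genes. Tests were edgeR's quasi-likelihood test across all genes with Benjamini-Hochberg adjustment, a gene being called below an adjusted p of 0.05.

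Between organs, the immunoproteasome genes stood lower in lymph node than in both other organs. Psmb8, the catalytic subunit that takes the place of Psmb5, was at 1505 and 1505 for liver, 1568 and 1551 for spleen and 1002 and 964 for lymph node. The lymph node libraries lay below the other 4, which were close to each other. The difference was 0.61 ± 0.12 (SE) on the log2 scale for liver against lymph node (edgeR adjusted p = 0.000116), 0.67 ± 0.12 (SE) for spleen against lymph node (edgeR adjusted p = 9.04e-05) and -0.051 ± 0.12 (SE) for liver against spleen (edgeR adjusted p = 0.789). Psmb9, which takes the place of Psmb6, was at 377 and 427 for liver, 347 and 320.3 for spleen and 232 and 221 for lymph node. Here no organ overlapped another, with liver highest and lymph node lowest. Psmb9 was higher in liver than in lymph node by 0.83 ± 0.12 (SE) (edgeR adjusted p = 8.13e-07) and higher in spleen than in lymph node by 0.56 ± 0.12 (SE) (edgeR adjusted p = 0.000655), and its difference of 0.27 between liver and spleen was not called (edgeR adjusted p = 0.0815). That difference was called with scaling by library size alone (0.35), with no filter on low counts (0.31) and without the first liver library (0.37), with edgeR adjusted p = 0.017, 0.047 and 0.049, and in 1 further alternative given with the effects of processing.

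Psmb10, the immunoproteasome counterpart of Psmb7, was at 447 and 471 for liver, 491 and 438 for spleen and 316 and 294 for lymph node. Liver and spleen overlapped, and both lay above lymph node by 0.59 ± 0.12 (SE) (edgeR adjusted p = 0.000134) and 0.61 ± 0.12 (SE) (edgeR adjusted p = 0.000241). Psme1, a subunit of the PA28 cap, was at 754 and 829.9 for liver, 711 and 689 for spleen and 597 and 463 for lymph node. Its organs did not overlap, but its lymph node libraries were farther apart than those of the catalytic subunits. It was higher in liver by 0.58 ± 0.13 (SE) (edgeR adjusted p = 0.000423) and in spleen by 0.40 ± 0.13 (SE) (edgeR adjusted p = 0.0228), and without the second lymph node library these became 0.41 and 0.22 and neither was called. The call for spleen was also lost without either spleen library (0.38 and 0.42). Psme2, its partner in the cap, was at 779 and 921 for liver, 979 and 996 for spleen and 680.2 and 659.7 for lymph node. Spleen was highest and lymph node lowest, with differences from lymph node of 0.34 ± 0.12 (SE) for liver (edgeR adjusted p = 0.0243) and 0.56 ± 0.12 (SE) for spleen (edgeR adjusted p = 0.000933). The call of Psme2 for liver against lymph node was lost without the second liver library, where the difference was 0.22, and without either lymph node library (0.37 and 0.32).

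**Figure D1:**
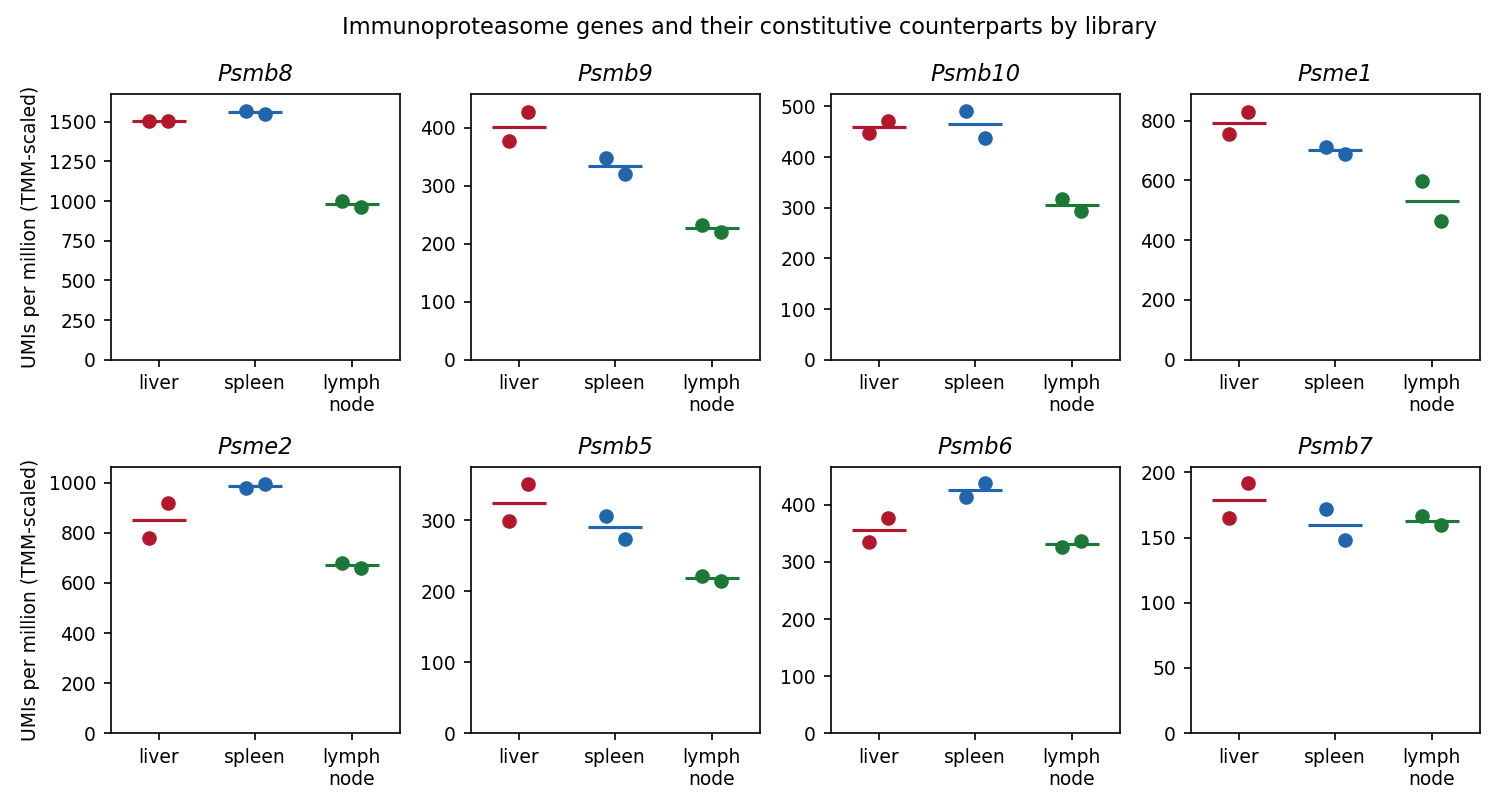
Level of the 5 immunoproteasome genes and their 3 constitutive counterparts in CPM after TMM scaling (vertical axes, each from 0) in the 2 libraries of each organ (points), with the mean of each organ as a line. Psmb8 lies at 1002 and 964 in lymph node and at 1505 to 1568 in the other 4 libraries, while Psmb7 overlaps between organs.

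The constitutive counterparts were not alike. Psmb5, the chymotrypsin-like subunit, was at 299 and 350.0 for liver, 306 and 273 for spleen and 221 and 215 for lymph node. Both lymph node libraries lay below the other 4, with differences of 0.57 ± 0.12 (SE) from liver (edgeR adjusted p = 0.000215) and 0.41 ± 0.12 (SE) from spleen (edgeR adjusted p = 0.0131). Psmb6, the caspase-like subunit, was at 336 and 376 for liver, 414 and 439 for spleen and 326 and 337 for lymph node. It was called for spleen against lymph node (0.36, edgeR adjusted p = 0.0249) and for neither comparison with liver (-0.26 against spleen and 0.10 against lymph node). For spleen against lymph node, the calls of both genes were lost with equal weight per cell in limma and without the first spleen library or either lymph node library, and that of Psmb6 also without the second spleen library, with differences of 0.33 to 0.43 for Psmb5 and 0.32 to 0.41 for Psmb6. Psmb7, the trypsin-like subunit, was at 165 and 192 for liver, 172 and 148 for spleen and 167 and 159 for lymph node, and the 3 organs overlapped with no call in any pair (edgeR adjusted p = 0.341, 0.392 and 0.92).

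The share of immunoproteasome UMIs within each catalytic pair showed how the members of a pair moved against each other. Psmb8 held 83.4% and 81.1% of the Psmb8 and Psmb5 UMIs for liver, 83.7% and 85.0% for spleen and 81.9% and 81.8% for lymph node, so the share of this pair was close in the 3 organs although both genes were lower in lymph node. Psmb9 held 52.9% and 53.2% of the UMIs of its pair for liver, 45.6% and 42.2% for spleen and 41.5% and 39.6% for lymph node. Psmb10 held 73.0% and 71.0% for liver, 74.0% and 74.8% for spleen and 65.5% and 64.8% for lymph node. The liver libraries thus stood apart for the Psmb9 pair and the lymph node libraries for the Psmb10 pair. In NK-marked cells (defined with the comparison within that class) the Psmb10 share was 73.1% and 70.8% for liver, 74.6% and 75.3% for spleen and 71.7% and 70.3% for lymph node, and the Psmb9 share was 53.1% and 52.9%, 46.3% and 41.8% and 46.1% and 42.2% in the same order. Within this class liver and lymph node overlapped for the Psmb10 pair, and spleen and lymph node for the Psmb9 pair. Over all cells the widest Wilson 95% interval, that of Psmb10 in the second lymph node library, ran from 62.5% to 67.1%, and in NK-marked cells the same share had an interval of 66.3% to 74.1%. These intervals cover counting error only.

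**Figure D2:**
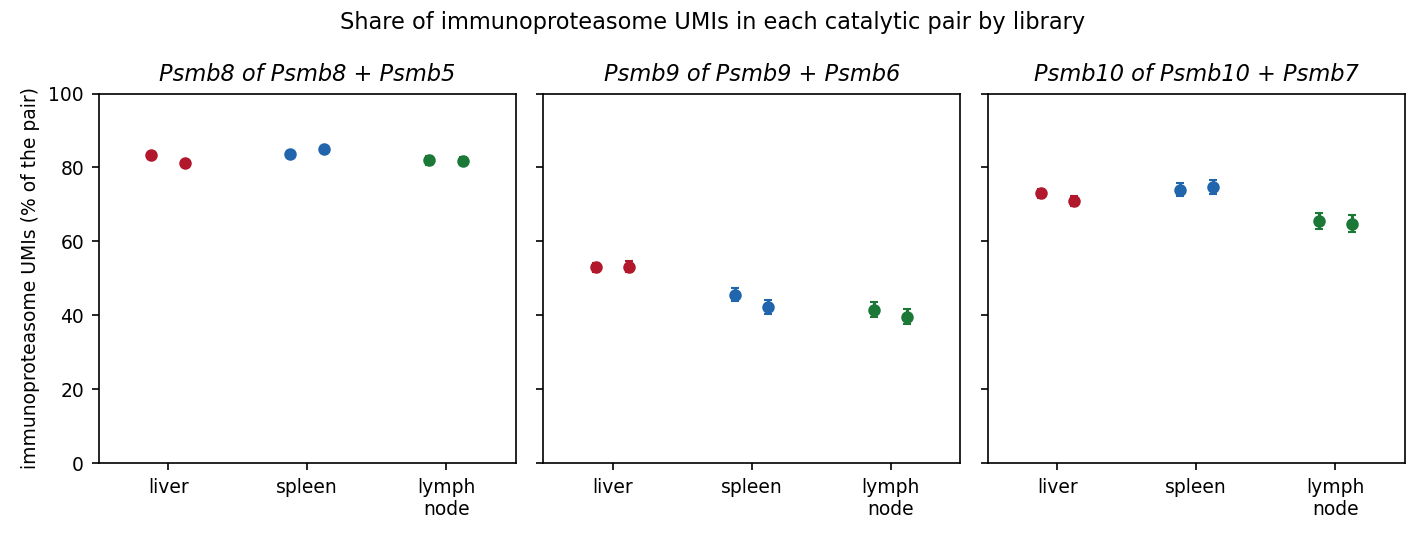
Share of immunoproteasome UMIs within each catalytic pair (vertical axis, percent) in the 2 libraries of each organ, with Wilson 95% intervals as bars. Psmb8 keeps a share of 81.1% to 85.0% in all 6 libraries, whereas Psmb9 falls from 53.2% at the highest in liver to 39.6% at the lowest in lymph node.

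The share of cells with a UMI depends on depth and is given for Psmb8 before and after thinning. Psmb8 had a UMI in 93.5% and 91.2% of cells for liver, 84.1% and 81.3% for spleen and 68.5% and 65.5% for lymph node. In cells thinned to 1000 UMIs these shares were 78.1% and 76.5%, 79.2% and 76.4%, and 61.0% and 62.5%, so liver and spleen were no longer apart while lymph node remained below. Thinning dropped the cells under 1000 UMIs, which were more in spleen and lymph node than in liver. No cell type lacks the proteasome, so there was no cell in these libraries that could give the level of free RNA for it. The thymic Psmb11 had a UMI in at most 0.107% of the cells of a library.

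Across the whole family, liver against lymph node called 10 of the 48 genes, 7 higher and 3 lower in liver, against 37.5% of all 10265 genes tested (18.0% higher and 19.5% lower), so the count of members was not above that background. The 5 immunoproteasome genes were all among those higher in liver, and the other two were Psmb5 and Psmd3, a scaffold subunit of the 19S lid (0.51, edgeR adjusted p = 0.00289). Psmb2, a structural beta subunit, was at 323 and 403 for liver, 525 and 595 for spleen and 505 and 534 for lymph node, and it was lower in liver by a log2 difference of -0.52 (edgeR adjusted p = 0.00115). The lid subunits Psmd6 (-0.40) and Psmd7 (-0.34) were lower in liver too (edgeR adjusted p = 0.0121 and 0.0204). Over the main fit and 18 alternatives, Psmd6 was called in 15 settings (-0.51 to -0.29) and Psmd7 in 14 (-0.39 to -0.28). Psmb2 (-0.68 to -0.36) and Psmd3 (0.46 to 0.57) were each called in 18. None of the 7 alpha subunits, the 6 ATPases or the 7 assembly chaperones was called, and the 43 genes outside the immunoproteasome had a median log2 difference of -0.031 against 0.59 for the 5 within it and 0.0073 for all genes tested. Without the second lymph node library 6 members were called among 2387 of 10575 genes. With equal weight per cell limma called 5 members among 2606 of 10265 genes. The call of Psme2 (0.41) was lost there, with a limma adjusted p of 0.077, as were those of Psmb2, Psmd3, Psmd6 and Psmd7.

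Spleen against lymph node called 9 of the 48 genes, all higher in spleen, against 18.1% of all genes (7.91% higher and 10.2% lower), a total share close to the background. These were the 5 immunoproteasome genes, Psmb5, Psmb6, the alpha subunit Psma2 (0.38, edgeR adjusted p = 0.0243) and Psme2b (0.44, edgeR adjusted p = 0.00718). Over the main fit and 18 alternatives, Psma2 was called in 14 settings (0.36 to 0.41) and Psme2b in 16 (0.39 to 0.49). Psma2 was at 472 and 569 for liver, 676 and 668 for spleen and 522 and 513 for lymph node, and both spleen libraries lay above the other 4. All 6 ATPases had folds above 0 (0.046 to 0.20), and so had all 7 alpha subunits (0.15 to 0.38), but Psma2 was the only call in these groups. The median of the 43 other genes was 0.15 against 0.0047 for all genes tested. Leaving out the second spleen library left 5 calls among 1343 of 10610 genes called, and leaving out the first or second lymph node library also left 5, among 1240 of 10566 and 1003 of 10575. With equal weight per cell limma called 2 members, Psmb8 and Psmb10, among 1200 of 10265 genes. The calls of Psmb9 (0.50), Psme2 (0.54) and Psme1 (0.37) were lost there, with limma adjusted p = 0.075, 0.056 and 0.19.

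Liver against spleen gave another pattern, in which no immunoproteasome gene was called and other members were lower in liver. Of the 48 genes, 11 were called, 1 higher and 10 lower, against 25.7% of all genes (12.8% higher and 13.0% lower), again a total share near the background. Psmb2 was the lowest against spleen (-0.63 ± 0.12 (SE), edgeR adjusted p = 0.000322). Psmd12, a lid subunit, was at 84.5 and 86.7 for liver, 125 and 122 for spleen and 104 and 105 for lymph node, with both liver libraries lowest and both spleen libraries highest, and it was lower in liver by a difference of -0.53 (edgeR adjusted p = 0.00112). Psmd6 (-0.58), Psme2b (-0.58) and the chaperone Psmg1 (-0.48) were also lower in liver (edgeR adjusted p = 0.000795, 0.000429 and 0.018). Psmd3 was the call in the other direction, at 78.9 and 75.3 for liver, 64.1 and 57.2 for spleen and 53.4 and 55.2 for lymph node. Its difference of 0.35 stood at the threshold (edgeR adjusted p = 0.0496) and was lost without any 1 of the 6 libraries. Over the main fit and 18 alternatives, Psmd3 was called in 7 settings (0.27 to 0.43) and Psmg1 in 14 (-0.62 to -0.32). By group, 2 of 7 alpha subunits, 2 of 7 constitutive beta subunits, 2 of 6 ATPases, 2 of 11 other 19S subunits and 1 of 7 chaperones were lower in liver. Scaling by library size alone moved the median of all genes from 0.020 to 0.10, turned the calls over all genes from 1310 higher and 1333 lower into 1673 and 970, and those of the members into 3 higher and 7 lower. Without the first liver library 5 members were called among 1371 of 10554 genes, and without the second spleen library 4 among 1391 of 10610. With equal weight per cell limma called 0 of 48, with 7 at an unadjusted p under 0.05, and 953 of all 10265 genes.

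**Figure D3:**
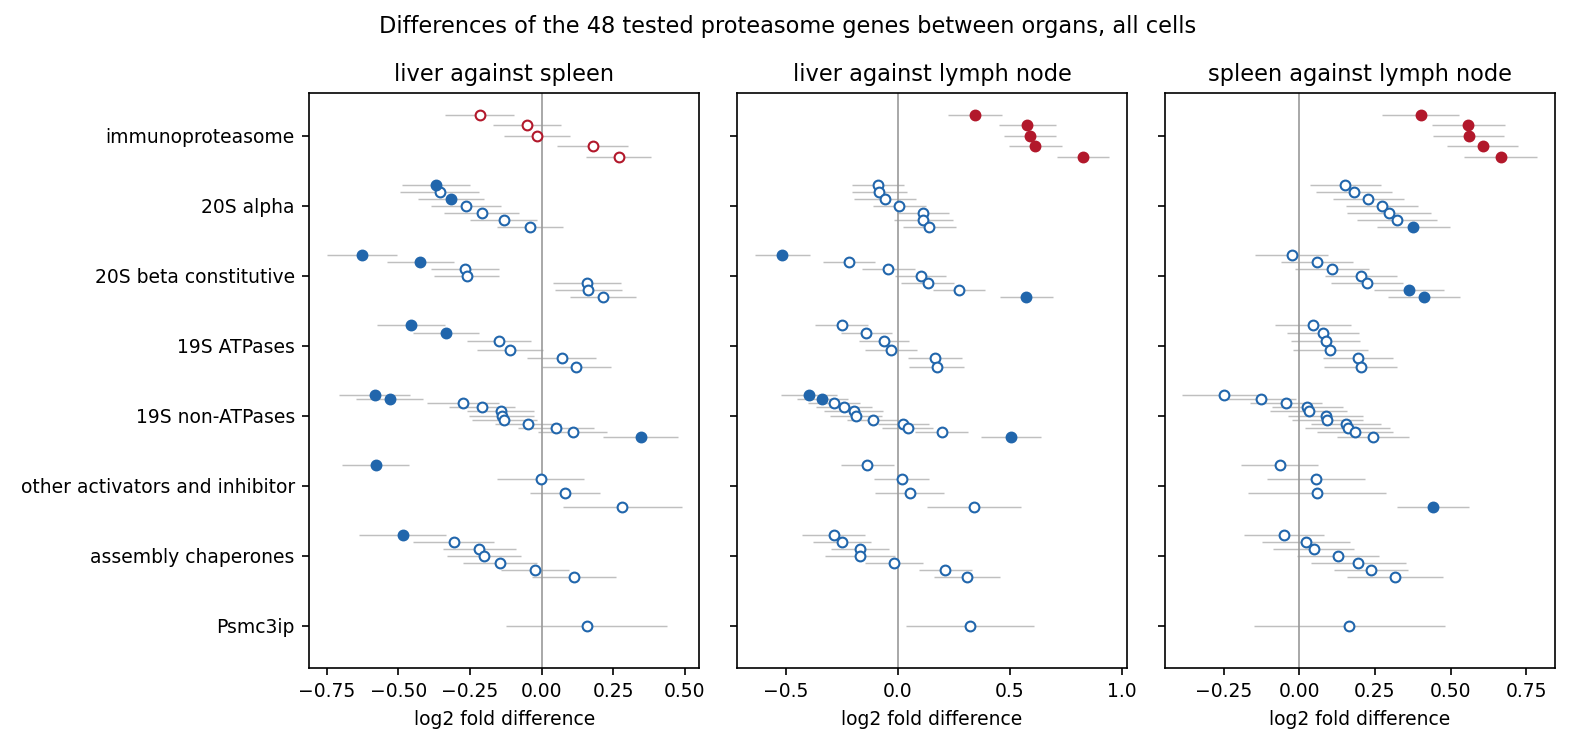
Log2 fold difference (horizontal axes, each with its own scale) of the 48 tested proteasome genes, grouped by role, in each pair of organs, with standard errors as bars. Filled points passed the test, open points did not. The 5 immunoproteasome genes are filled and to the right of 0 in both comparisons with lymph node and open in liver against spleen.

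The organs were then compared within NK-marked cells. NK-marked cells carried at least 2 UMIs over 10 genes of NK-like iNKT cells, such as Tbx21, Nkg7 and Ccl5, and fewer than 2 over a second list of 11 marker genes, and made up 84.6% to 92.1% of liver and spleen cells and 37.2% and 33.7% of lymph node cells. These cells were not alike between organs, with a median of 21 and 17 UMIs over the 10 NK genes for liver, 12 and 10 for spleen and 5 in each lymph node library, and the part of this in the results was not tested. Within this class, Psmb8 was at 1489 and 1483 for liver, 1557 and 1534 for spleen and 1072 and 1072 for lymph node. Both lymph node libraries again lay below the others, by 0.47 ± 0.12 (SE) from liver (edgeR adjusted p = 0.0054) and 0.53 ± 0.12 (SE) from spleen (edgeR adjusted p = 0.00479). Psmb9 was at 377 and 419 for liver, 349.9 and 316 for spleen and 293 and 266 for lymph node. Its difference between liver and lymph node was 0.51 ± 0.13 (SE) (edgeR adjusted p = 0.00414), and that between spleen and lymph node, 0.25, was not called (edgeR adjusted p = 0.287). For Psmb10 the differences from lymph node were 0.40 and 0.43 (edgeR adjusted p = 0.0198 and 0.0315), for Psme1 0.40 and 0.22 (edgeR adjusted p = 0.0211 and 0.337) and for Psme2 0.17 and 0.39 (edgeR adjusted p = 0.37 and 0.0499), for liver and spleen in that order. Of the main fit and 9 alternatives, 8 called Psmb8 for liver against lymph node, 9 Psmb9, 7 Psmb10 and 8 Psme1. For spleen against lymph node, 8 called Psmb8, 6 Psmb10 and 5 Psme2.

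Liver against lymph node thus called 10 of 48 members in NK-marked cells, 6 higher and 4 lower, against 21.7% of 10023 genes (9.82% higher and 11.9% lower), which is close to the background. Psmb8, Psmb9, Psmb10, Psme1, Psmb5 (0.54, edgeR adjusted p = 0.00307) and the chaperone Psmg3 (0.55, edgeR adjusted p = 0.0441) were higher in liver, and Psmd5, Psmb2, Psmd12 and Psmg2 were lower (-0.56, -0.54, -0.47 and -0.43). Over the main fit and 9 alternatives, Psmg3 was called in 4 settings (0.46 to 0.63) and Psmd5 in 6 (-0.78 to -0.33). Psmd12 (-0.51 to -0.37) and Psmg2 (-0.55 to -0.33) were called in 5 each, and Psmb2 in 9. Spleen against lymph node called 3 of 48, Psmb8, Psmb10 and Psme2, all higher in spleen, against 7.56% of all genes (2.42% higher and 5.14% lower). Liver against spleen called 9 of 48, 1 higher and 8 lower, against 23.0% (11.7% higher and 11.3% lower), and the largest of them were again Psmb2 (-0.62), Psme2b (-0.59), Psmd6 (-0.57), Psmd12 (-0.52), Psmg1 (-0.47) and, higher in liver, Psmd3 (0.37). Over the main fit and 9 alternatives, Psmd3 was called in 3 settings (0.31 to 0.43), Psmg1 in 7 (-0.67 to -0.30) and Psmd6 in 8 (-0.72 to -0.41). The constitutive Psmb6 and Psmb7 were not called in any pair of the main fit, with log2 differences from -0.26 to 0.26 for Psmb6 and from 0.15 to 0.34 for Psmb7. Among the alternatives, Psmb7 was called for liver against lymph node in 2 settings (0.21 to 0.45 over all settings). The calls in NK-marked cells rested on few libraries. The count for liver against lymph node was 6 without the first liver library and 5 or 2 without the first or second lymph node library, where 1382 of 10345, 1349 of 10325 and 1062 of 10371 genes were called. That for spleen against lymph node was 1 without the first spleen library and 0 without either lymph node library, with 4 and 7 of 48 members at an unadjusted edgeR p under 0.05, where 626 of 10374, 403 of 10325 and 382 of 10371 genes were called. That for liver against spleen was 3 without the first liver or the second spleen library, with 1142 of 10345 and 1194 of 10394 genes called.

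Interferon-marked cells were compared with the other cells of the same library. A cell was interferon-marked with at least 2 UMIs over 10 interferon-stimulated genes, such as Ifit1, Ifit3 and Rsad2, and was compared with cells that had 0, and no proteasome gene was among the 10. There were 184 to 414 marked cells in a library. All 5 immunoproteasome genes were higher in marked cells, in 6 of 6 libraries each. Psmb9 was at 474, 561, 438, 397, 367 and 282 CPM in marked cells of the liver, spleen and lymph node libraries in order. In the other cells of the same libraries it was at 351, 393, 334, 316, 213 and 214. Marked cells were above the others in every library, by 0.47 ± 0.052 (SE) on the log2 scale (edgeR adjusted p = 7.96e-12). Psmb10 was at 543, 578, 629.7, 573, 481 and 396 in marked cells. Its values in the other cells were 429.6, 446, 464, 406, 293 and 277. The difference was 0.45 ± 0.048 (SE) (edgeR adjusted p = 1.30e-12).

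Psmb8 was at 1654, 1745, 1728, 1913, 1414 and 1223 in marked cells. In the other cells it was at 1463, 1443, 1539, 1483, 952 and 938, and the difference was 0.31 ± 0.038 (SE) (edgeR adjusted p = 9.10e-09). The other cells of lymph node were the lowest of all, and its marked cells still lay below the other cells of liver and spleen. The cap genes moved with the catalytic ones, Psme1 by 0.32 ± 0.041 (SE) (edgeR adjusted p = 3.06e-09) and Psme2 by 0.36 ± 0.039 (SE) (edgeR adjusted p = 2.51e-12). Psme1 spanned 583 to 931 CPM in marked cells and 460 to 801 in the others, and Psme2 spanned 831 to 1223 and 629 to 939. The constitutive counterparts did not pass the test, with differences of 0.032 for Psmb5, 0.031 for Psmb6 and 0.12 for Psmb7 (edgeR adjusted p = 0.92, 0.907 and 0.543). Psmb5 and Psmb6 were higher in marked cells in 3 of 6 libraries and Psmb7 in 5 of 6. Over 9 alternatives their differences ran from -0.037 to 0.065 for Psmb5, -0.065 to 0.064 for Psmb6 and -0.22 to 0.15 for Psmb7. Each was called in 0 of these.

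Over the family, 9 of 48 genes were called, all higher in marked cells, against 3.16% of 8807 genes tested (2.62% higher and 0.534% lower), so the share of members called was above the background. Beside the 5 immunoproteasome genes these were Psme2b (0.38, edgeR adjusted p = 6.24e-05), Psma2 (0.20), Psma4 (0.20) and Psmb2 (0.18). Over the main fit and 9 alternatives, Psma4 was called in 5 settings (0.18 to 0.24). Psma2 (0.12 to 0.24) and Psmb2 (-0.024 to 0.23) were called in 7 each, and the immunoproteasome genes and Psme2b in all 10. None of the 6 ATPases (0.0010 to 0.11), the 11 other 19S subunits (-0.069 to 0.24) or the 7 chaperones (-0.36 to 0.19) was called. Marked cells held 1.16 to 1.32 times as many UMIs per cell as the others. With cells thinned to 1000 UMIs before marking, 6 of 47 genes were called, the 5 immunoproteasome genes and Psme2b, against 3.02% of all genes. Psmb9 then differed by 0.64, Psmb10 by 0.49, Psme1 by 0.46, Psmb8 by 0.35 and Psme2 by 0.33, while Psmb2 stood at -0.024 (edgeR adjusted p = 0.969). The share of Psmb9 in its pair was 58.3% ± 0.878 (SD, n = 2) in marked and 51.2% ± 0.245 in other cells of liver. The same shares were 49.0% ± 2.01 and 43.5% ± 2.37 for spleen and 50.3% ± 5.26 and 39.3% ± 0.271 for lymph node. The mean Psmb8 share was 83.3% and 82.3% for liver, 86.8% and 84.1% for spleen and 87.0% and 81.2% for lymph node. In the first liver library it was lower in marked cells (83.3%) than in the others (83.7%). The mean Psmb10 share was 75.0% and 72.1%, 76.6% and 73.2%, and 73.4% and 63.2% in the same order.

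**Figure D4:**
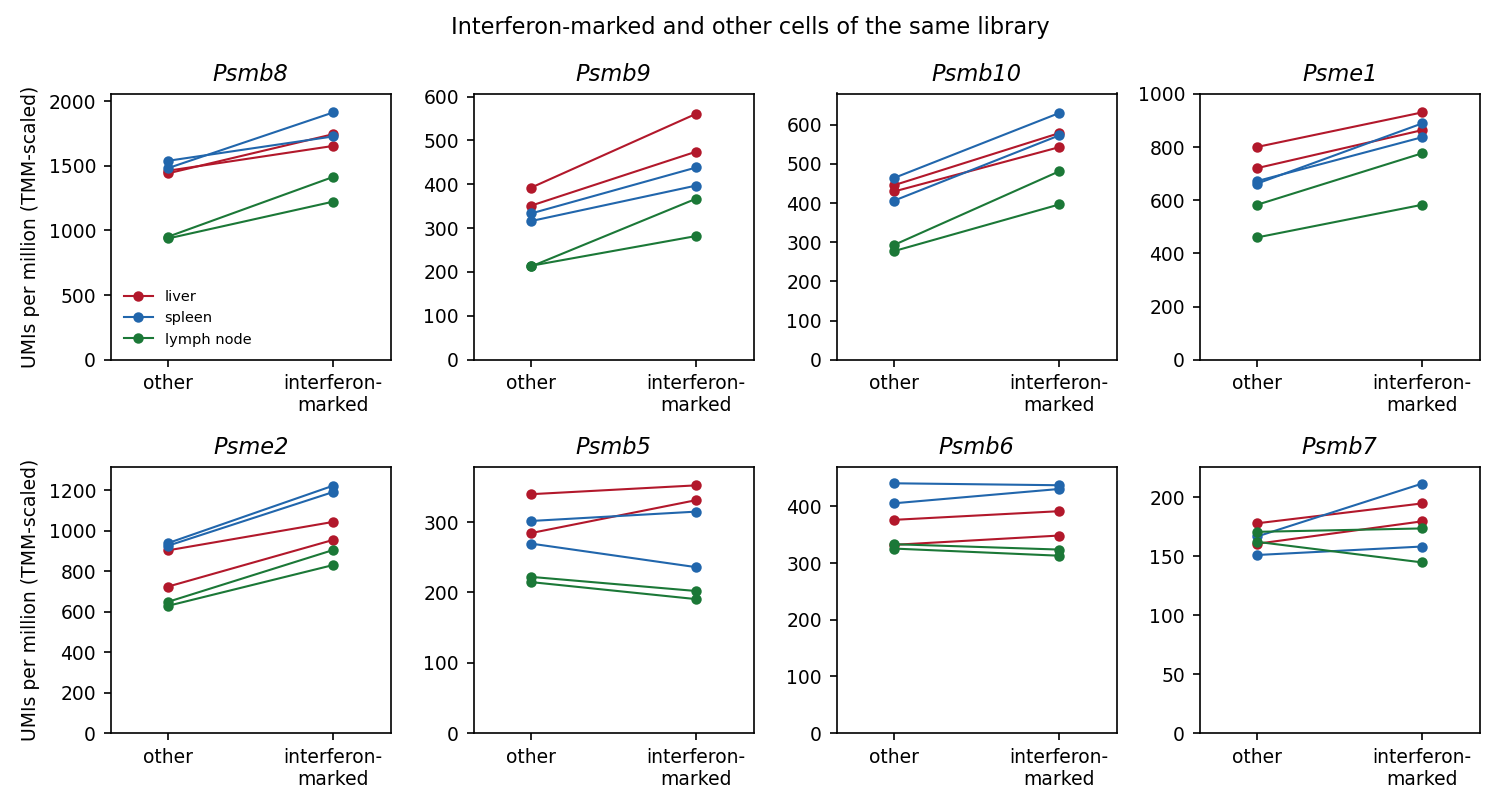
Level in CPM after TMM scaling (vertical axes, each from 0) in the other and the interferon-marked cells of each library, joined by a line and coloured by organ. The lines of Psmb8, Psmb9, Psmb10, Psme1 and Psme2 rise in 6 of 6 libraries, while those of Psmb5 and Psmb6 rise in 3 and those of Psmb7 in 5.

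Whether the interferon difference itself differed between organs was tested as an interaction. No member was called in any pair of organs, in a design in which edgeR called 0.0341% of all genes for liver against spleen, 0.988% for liver against lymph node and 0.284% for spleen against lymph node. At an unadjusted edgeR p under 0.05 there were 2, 4 and 2 of the 48 members. The smallest p of an immunoproteasome gene was that of Psmb8 for liver against lymph node, where the interferon difference in liver minus that in lymph node was -0.26 ± 0.084 (SE) (edgeR adjusted p = 0.148). A gate at 3 UMIs called 0 members as well, where 8, 52 and 26 of 8489 genes were called in the same order of pairs. At that gate 4, 4 and 3 of the 48 members had an unadjusted edgeR p under 0.05.

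Cycling-marked cells gave a different set of genes. A cell was cycling-marked with at least 2 UMIs over 12 genes of dividing cells, such as Mki67 and Top2a, and was compared with cells that had 0. There were 78 to 230 marked cells in a library, and they held 2.01 to 2.90 times as many UMIs per cell as the others. Of the 48 genes, 32 were called, all higher in marked cells, against 34.2% of 8860 genes (17.6% higher and 16.6% lower). All 7 alpha subunits were called (0.28 to 0.75), as were all 6 ATPases (0.28 to 0.63), 9 of 11 other 19S subunits and 5 of 7 constitutive beta subunits. The median log2 difference of the 48 genes was 0.33 against -0.059 for all genes tested. Psmd1, a scaffold of the 19S base, was at 85.5 to 152 CPM in the marked cells of the 6 libraries. In the other cells it was at 54.7, 56.9, 51.3, 53.0, 61.9 and 58.8, below every marked value, and the difference was 0.94 ± 0.11 (SE) (edgeR adjusted p = 2.68e-09). The alpha subunit Psma4 (0.75), the catalytic Psmb7 (0.70), the ATPase Psmc6 (0.63) and the alpha subunit Psma1 (0.57) followed, each higher in 6 of 6 libraries. Psmc3ip showed the widest difference (1.84 ± 0.24 (SE), edgeR adjusted p = 1.80e-08), from 81 UMIs in marked and 143 in other cells. It is counted among the 48 genes and the 32 called, although it is not a proteasome subunit and acts in meiotic recombination.

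The catalytic subunits were called on both sides of the family. The constitutive Psmb7 (0.70), Psmb6 (0.32) and Psmb5 (0.29) were higher in cycling-marked cells in 6 of 6 libraries (edgeR adjusted p = 7.90e-09, 0.000231 and 0.00139). Of the immunoproteasome genes, Psmb9 (0.49, edgeR adjusted p = 1.39e-07) and Psme2 (0.18, edgeR adjusted p = 0.0244) were called. The call of Psme2 was lost with DESeq2 (0.19), after thinning (0.12), and without the second spleen library (0.19) or either lymph node library (0.13 and 0.15). Psmb8, Psmb10 and Psme1 were not, at 0.05, -0.025 and -0.086 (edgeR adjusted p = 0.546, 0.814 and 0.313), and Psme1 was lower in marked cells in 6 of 6 libraries. Fewer members were called after thinning, which also lowers the counts. With cells thinned to 1000 UMIs before marking, 5 of 47 members were called against 12.3% of all genes, a share close to that background, and the median over the members was 0.16 against -0.11 for all genes. Psmb7 (0.79), Psmd1 (0.76), Psma4 (0.43) and Psmb9 (0.41) stayed higher, and Psme1 was then lower (-0.33, edgeR adjusted p = 0.0291). The calls of Psmb5 (0.078, edgeR adjusted p = 0.814), Psmb6 (0.15, 0.521), Psmc6 (0.48, 0.0735) and Psma1 (0.24, 0.326) were lost after thinning.

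**Figure D5:**
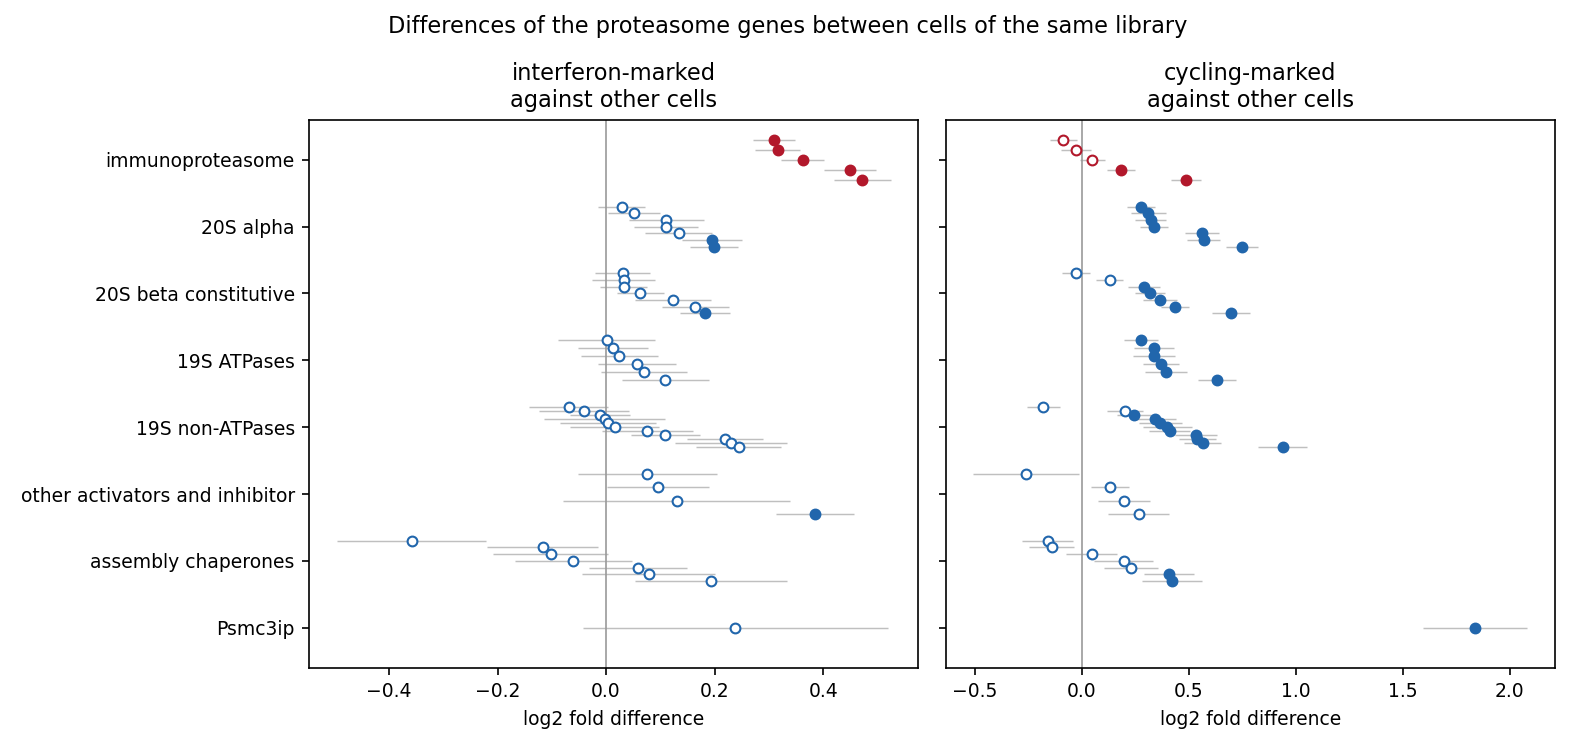
Log2 fold difference (horizontal axes, each with its own scale) of the proteasome genes, grouped by role, between cells of the same library, with standard errors as bars. Filled points passed the test, open points did not. The 5 immunoproteasome genes are filled and to the right of 0 in the interferon panel, and 32 of 48 genes are filled in the cycling panel.

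Genes of the same pathway outside the family were followed in 3 lists. Of 11 genes of antigen processing, 5 were higher in liver than in lymph node and none lower, against 18.0% and 19.5% of all genes, led by the regulators Nlrc5 (1.64) and Irf1 (1.37) and the lectin chaperone Calr (1.12), with an edgeR adjusted p of 2.66e-08, 1.62e-09 and 7.37e-08 in that order. Against spleen, 4 were higher in liver and 1 lower (background 12.8% and 13.0%), and spleen against lymph node had 3 higher and none lower (background 7.91% and 10.2%). In NK-marked cells 5 of the 11 were higher and none lower for liver against lymph node (background 9.82% and 11.9%), and 4 were higher and 1 lower for liver against spleen (background 11.7% and 11.3%). In the same cells edgeR called none of the 11 for spleen against lymph node, where 7.56% of all genes were called, and 4 of the 11 had an unadjusted p under 0.05. In interferon-marked cells 5 of 11 were higher, against 2.62% of all genes, with the peptide transporter subunit Tap1 (0.51) and the tapasin genes Tapbp (0.49) and Tapbpl (0.34) in front. In cycling-marked cells 5 were higher and 1, Irf1, was lower (-0.42), against 17.6% and 16.6% of all genes.

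Of 13 partners of the proteasome tested, the nuclear import factor Akirin2 was lower in liver (-1.14) and in spleen (-0.98) than in lymph node, and 4 partners were called for liver against lymph node, 1 higher and 3 lower, which is not above the background of 37.5%. In cycling-marked cells 4 were higher, among them the deubiquitinases Uchl5 (0.98) and Usp14 (0.67) and the thioredoxin-like Txnl1 (0.63), and 2 were lower, where 34.2% of all genes were called. The assembly factor Pomp was the 1 partner called in interferon-marked cells (0.15), against 3.16% of all genes. Of 11 ubiquitin and delivery genes, 3 were higher and 2 lower in liver than in lymph node, a count near the background of 37.5%, the widest being Nploc4 (0.86), Uba1 (0.80) and Ubqln2 (-0.66). For liver against spleen 4 of the 11 were higher and 1 lower, against 12.8% and 13.0% of all genes. Uba1 was also higher in spleen than in lymph node (0.36), and no gene of this list was called by edgeR in interferon-marked cells, where 3.16% of all genes were called, with 1 of 11 at an unadjusted p under 0.05.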

How the data were processed

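The deposited tables held UMI counts per gene and barcode for 6 libraries, made by the authors with Cell Ranger 3.1.0 on mm10 and not normalized, with gene and barcode lists of no unit (other). Barcodes with 300 to 4000 genes and at most 15% mitochondrial UMIs were kept, and no doublet caller was run. Ribosomal, ribosomal RNA and haemoglobin genes (94) were left out of totals. Counts were summed per library, or per library and marked class of at least 10 cells, filtered on low counts, scaled by TMM and tested with edgeR 4.0.16 (R 4.3.3), organs in a fit of all libraries and classes with library as a block. DESeq2 1.42.0 and limma 3.58.1 served as alternatives, limma on log2 (mean per 10000 UMIs + 0.01). Steps were tested on simulated data. Members, lists and tests were chosen with earlier results of these data known. Named in full were the immunoproteasome genes, Psmb5, Psmb6 and Psmb7; of other called members, up to 5 in each direction; of each pathway list, up to 3. A label calls the molecule nuclear RNA, which was not settled. Wilson intervals (95%) used scipy 1.17.1, and depth limits precision most in lymph node and spleen. A cell class comparison and 2 pathway genes are not reported here.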

Additional observations from a re-analysis of the deposited data

How the results depend on the processing

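In the comparison of organs over all cells, limma with equal weight per cell called 0 of 48 members for liver against spleen (7 at an unadjusted p under 0.05; edgeR called 11), 5 for liver against lymph node and 2 for spleen against lymph node, where it called 953, 2606 and 1200 of all 10265 genes. Leaving out 1 library gave 4 to 14, 6 to 11 and 5 to 9 calls in these pairs, where 1371 to 2405, 2387 to 4060 and 1003 to 1929 of 10554 to 10610 genes were called. In NK-marked cells it gave 3 to 13, 2 to 11 and 0 to 3, where 1142 to 2276, 1062 to 2338 and 382 to 835 of 10325 to 10394 genes were called. DESeq2 called 6 members and 1241 of 10023 genes in NK-marked cells for liver against lymph node. For cycling-marked cells thinning to 1000 UMIs left 5 calls and leaving out 1 library 30 to 32 (2617 to 2799 of 8823 to 9026 genes), and for interferon-marked cells leaving out 1 library gave 7 to 10 (195 to 289 of 8605 to 8904 genes). Psmb2 turned to -0.024 in interferon-marked cells after thinning. The causes were not tested, except that thinning and leaving out libraries leave fewer counts.

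A replicate block on the numbers in the labels gave 16, 12 and 11 calls between organs and 13, 13 and 4 in NK-marked cells, with 3067, 4168 and 2132 of 10265 and 2876, 2505 and 987 of 10023 genes called, and it also called Psmb9 for liver against spleen over all cells (0.27, edgeR adjusted p = 0.044). Deviations of libraries with the same number correlated at 0.0998, 0.0832 and 0.0745 over 10265 genes, so the numbers were not taken to pair the samples. Leaving out cells with B cell or myeloid markers, an alternative chosen after seeing the data, called 11, 10 and 9 members. These equalled the member counts of the main fit, which called 2643, 3846 and 1863 of all 10265 genes. Psmb8, Psmb9, Psmb10 and Psmb5 were called for liver against lymph node, all cells, in all 19 settings. Depth limits members of few UMIs, such as Psmc3ip, Psma8 and Psmb11.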
